A study of Gallus gallus with 12 samples.

Results

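Polyamines are small positively charged molecules that bind nucleic acids and that growing cells make in quantity. The genes described here are the 9 that make putrescine, spermidine and spermine, control the first enzyme of the route, and break the products down: ODC1, AMD1, SRM, SMS, OAZ1, OAZ2, AZIN1, SAT1 and SMOX. They were taken by gene symbol from a table of 12470 named chicken genes, and all 9 were found and passed the filter on low counts, beside 11195 genes tested in all. The samples were ovarian follicles of 6 hens aged 12 months. The later stage was the pre-ovulatory F5 follicle, one of the large yolky follicles ranked by their distance from ovulation, and it was set against the Pre-recruitment follicle, which has not yet joined that ranking. Each hen gave 1 follicle of each stage, so 6 F5 and 6 Pre-recruitment libraries share the same 6 birds. The labels give no treatment for any group, and whole follicle tissue was extracted, with the oocyte, granulosa and theca layers not separated by the labels.

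In the pathway, ornithine decarboxylase turns ornithine into putrescine, and S-adenosylmethionine decarboxylase makes the donor from which spermidine synthase and spermine synthase add their aminopropyl groups. Polyamines feed back on the first step. They promote a ribosomal frameshift that lets antizyme be made, antizyme carries ornithine decarboxylase to the proteasome, and antizyme inhibitor sequesters antizyme. In the mammalian ovary luteinizing hormone is known to induce ornithine decarboxylase activity, and ODC1 is a textbook target of MYC, the factor the study names as an upstream regulator in these follicles. Messenger RNA was measured here, not protein, enzyme activity or polyamine content.

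Named genes received 28044247 to 40887647 counts in F5 libraries and 20628640 to 29082988 in Pre-recruitment libraries. The F5 library was the deeper of the pair in 6 of 6 birds, so depth went with stage. The lowest count of any of the 9 genes in any library was 330, for SMOX, so counting error is small beside the spread between birds. Levels are CPM (counts scaled to a common library size), with TMM factors that set libraries level at the typical gene. They are not divided by transcript length, so levels were compared between stages, and no gene was called more abundant than another. Genes of like CPM served as a background for the spread over birds. Changes are log2 values for F5 minus Pre-recruitment from edgeR's quasi-likelihood test, with Benjamini-Hochberg adjustment over all tested genes and a threshold of 0.05. Marker genes of several cell types moved in the same libraries. The oocyte and germ cell list had 13 of its 18 genes in the table, none at 0 in all libraries, and 11 of the 13 were lower in F5 follicles, with summed levels of 6.51 to 68.4 CPM in F5 and 132 to 223 CPM in Pre-recruitment follicles. All 11 smooth muscle markers were higher in F5, with sums of 17051 to 33866 CPM in F5 and 4413 to 9899 CPM in Pre-recruitment follicles. Of 6 fibroblast markers 5 were higher, with sums of 39039 to 50864 CPM in F5 and 20514 to 30002 CPM in Pre-recruitment follicles. Of 11 granulosa markers 7 were lower and 2 higher, with sums of 1536 to 2971 CPM in F5 and 2783 to 3190 CPM in Pre-recruitment follicles. The granulosa sums and those of the remaining lists overlapped between stages. Of 6 theca markers 3 were higher and 1 lower, with sums of 2825 to 4894 CPM in F5 and 2847 to 4245 CPM in Pre-recruitment follicles. Endothelial markers had 4 higher and 2 lower of 8 tested, leukocyte markers 1 higher of 7, and erythrocyte markers none of 4 by edgeR, DESeq2 or an unadjusted p under 0.05. The part of these markers in the results below was not tested. In whole follicles a changed share of a cell type and changed RNA per cell cannot be told apart.

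In F5 follicles the messenger RNAs of the later synthesis enzymes and of the main antizyme were higher, that of the acetyltransferase SAT1 was lower, and those of ODC1, OAZ2, AZIN1 and SMOX did not pass the test. SRM, AMD1, OAZ1 and SMS rose and SAT1 fell, which makes 5 of 9 genes called. Of all tested genes 65.5% were called, 32.9% higher and 32.6% lower, so the share of polyamine genes called was not above that of genes in general. The median log2 change was 0.19 for the 9 genes and 0.02 for all tested genes, and the median size of the change irrespective of sign was 0.39 for both. Stage ranges did not overlap for 4 of the 9 genes, against 43.5% of all tested genes, and 5 of the 9 moved the same way in 6 of 6 birds, against 62.1% of all. Scaling by library totals in place of TMM moved the median log2 change of all genes to -0.21. By it 3 polyamine genes were higher (SRM, AMD1 and OAZ1) and 4 lower (SAT1, ODC1, AZIN1 and SMOX). Among all 11195 tested genes, 2071 were higher and 5200 lower by the same scaling. Directions below are therefore relative to the typical gene.

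**Figure D1:**
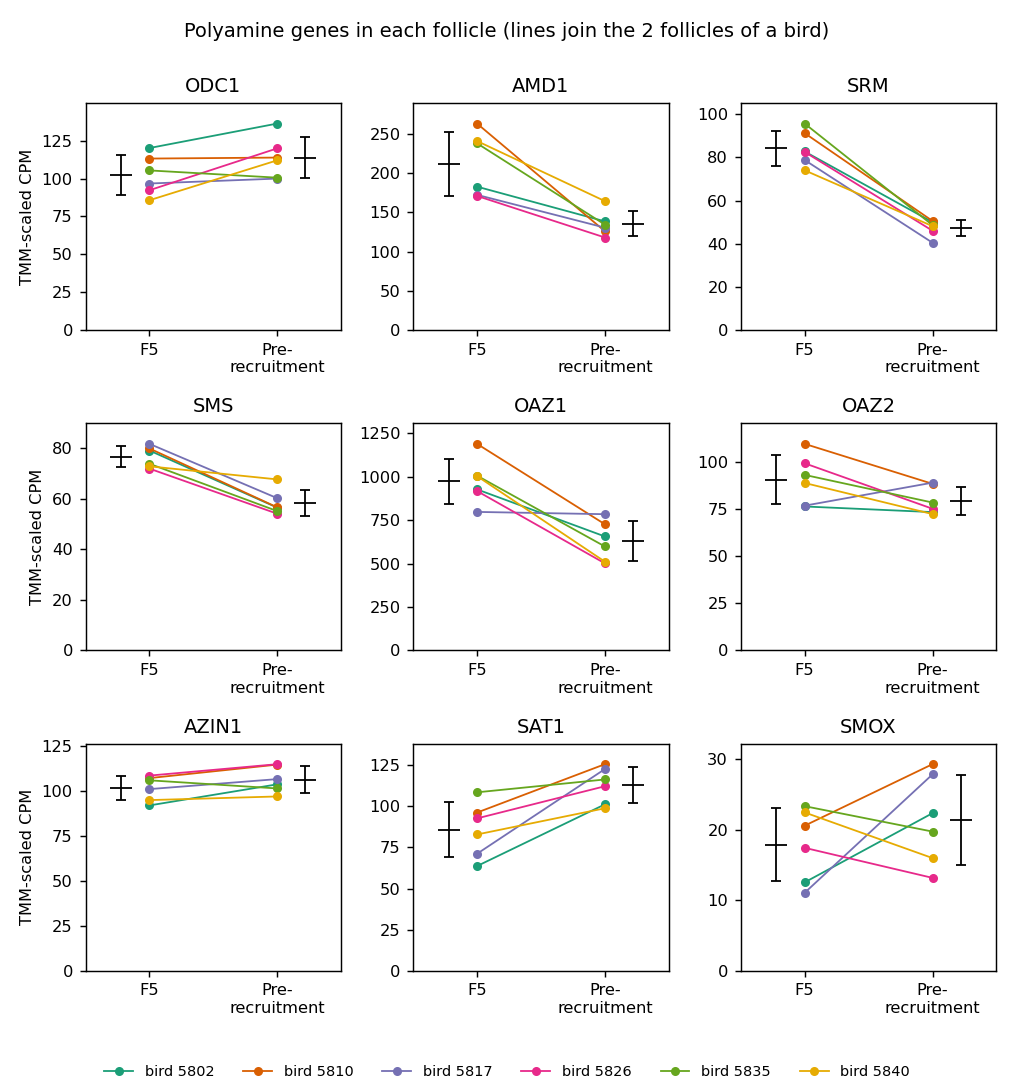
Level of each polyamine gene in TMM-scaled CPM (vertical axis, from 0) in F5 and Pre-recruitment follicles. Each point is 1 library, lines join the follicles of 1 bird, and black bars give the mean and SD of 6 birds. For AMD1, SRM, SMS and OAZ1 every F5 value lies above every Pre-recruitment value, whereas the lines of SMOX cross.

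ODC1, which encodes ornithine decarboxylase, the entry enzyme of the route, did not change with the other synthesis genes. It ranged over 85.7 to 120 CPM in F5 follicles (median 101) and over 99.95 to 136 CPM in Pre-recruitment follicles (median 113). The stages overlapped widely, and bird 5802 was the highest of both. The log2 change was -0.15 (SE 0.09, edgeR adjusted p = 0.165), with a lower value in F5 in 5 of 6 birds. Scaled by library totals, ODC1 had a log2 change of -0.39 and passed the test (edgeR adjusted p = 0.00296), so its call depends on the scaling.

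AMD1, which encodes S-adenosylmethionine decarboxylase, rose in F5 follicles. Its F5 levels ran from 171 CPM in bird 5826 to 263 CPM in bird 5810 (median 210), and its Pre-recruitment levels from 118 CPM in bird 5826 to 164 CPM in bird 5840 (median 132). The lowest F5 follicle lay just above the highest Pre-recruitment follicle, so the stages did not overlap. The mean was 211 ± 40.6 CPM in F5 and 135 ± 15.9 CPM in Pre-recruitment follicles (SD, n = 6 each), a 1.56-fold rise (log2 change 0.64, SE 0.12, edgeR adjusted p = 0.000301). Within birds the rise ran from 0.40 log2 units in bird 5802 to 1.06 in bird 5810.

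SRM, which encodes spermidine synthase, had the largest change of the 9 genes. F5 follicles held 74.0 to 95.7 CPM (median 82.7) and Pre-recruitment follicles 40.5 to 50.6 CPM (median 48.4). The groups were well apart. The coefficient of variation over birds was 9.49% in F5 and 7.82% in Pre-recruitment follicles. These stood at percentiles 51 and 44.2 among the 2203 genes within 0.5 log2 units of the mean level of SRM. The 1.78-fold rise (log2 change 0.83, SE 0.07, edgeR adjusted p = 4.44e-07) stood at percentile 79.9 of all tested genes by size of change. Within birds it ran from 0.62 log2 units in bird 5840 to 0.98 in bird 5835.

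SMS, which encodes spermine synthase, rose less. Its levels were 71.8 to 81.6 CPM in F5 follicles (median 76.3) and 54.0 to 67.5 CPM in Pre-recruitment follicles (median 56.4). No value was shared between the stages, and bird 5840 had the highest Pre-recruitment value. The rise was 1.31-fold (log2 change 0.39, SE 0.06, edgeR adjusted p = 9.07e-05), higher in 6 of 6 birds but by 0.11 log2 units in bird 5840 against 0.43 in the median bird. By library totals the log2 change was 0.16 and missed the threshold (edgeR adjusted p = 0.0836).

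**Figure D2:**
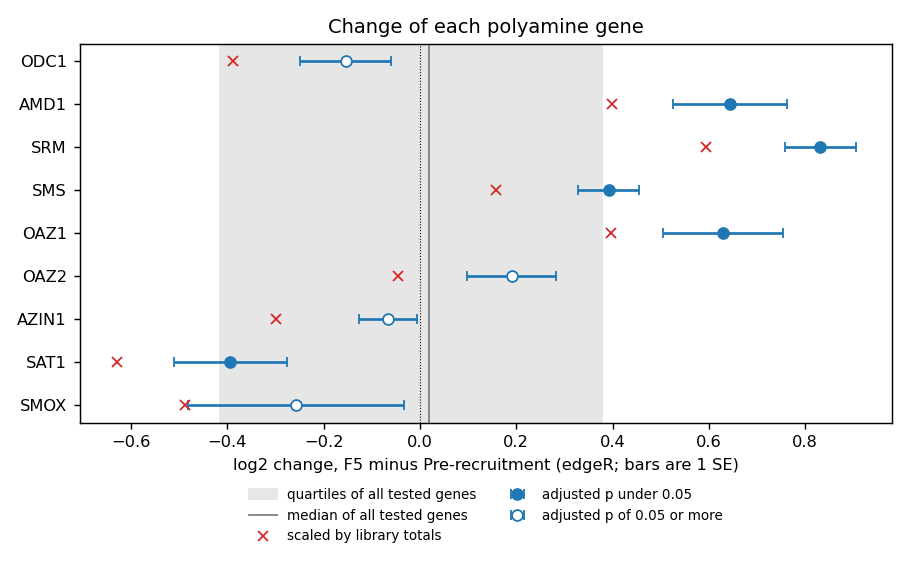
Log2 change of each gene, F5 minus Pre-recruitment (horizontal axis), from edgeR with TMM scaling, with bars of 1 SE. Filled circles passed an adjusted p of 0.05, red crosses give the value scaled by library totals, and the grey band holds all tested genes between the lower and upper quartile. SRM, AMD1 and OAZ1 lie right of the band by TMM scaling, and OAZ2 is on the other side of 0 under library totals.

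Among the genes that control ornithine decarboxylase, the main antizyme alone passed the test. OAZ1, which encodes antizyme 1, ranged from 797 CPM in bird 5817 to 1188 CPM in bird 5810 in F5 follicles (median 965) and from 501 CPM in bird 5826 to 784 CPM in bird 5817 in Pre-recruitment follicles (median 627). Bird 5817 was thus the lowest F5 follicle and the highest Pre-recruitment follicle, and its pair nearly met. The rise was 1.55-fold (log2 change 0.63, SE 0.12, edgeR adjusted p = 0.000518). It was seen in 6 of 6 birds, from 0.02 log2 units in bird 5817 to 0.97 in bird 5840. Without bird 5817 the log2 change was 0.75, the highest of the leave-one-out values.

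OAZ2, which encodes the related antizyme 2, measured 76.2 to 109 CPM in F5 follicles (median 90.8) and 72.2 to 88.8 CPM in Pre-recruitment follicles (median 76.6). The ranges overlapped, and bird 5817 alone had the lower value in F5. Its log2 change of 0.19 (SE 0.09) missed the threshold (edgeR adjusted p = 0.0866). It passed without bird 5817 (0.27, edgeR adjusted p = 0.0245), without the F5 library of 5802 (0.24, adjusted p = 0.0358) and without the F5 library of 5817 (0.24, adjusted p = 0.0378), and turned to -0.045 under library totals. The other leave-one-out fits did not pass, with edgeR adjusted p up to 0.302.

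AZIN1, which encodes antizyme inhibitor 1, a relative of ornithine decarboxylase without its catalytic activity, had the smallest change of the 9. It measured 92.0 to 109 CPM in F5 follicles (median 104) and 97.0 to 115 CPM in Pre-recruitment follicles (median 105). These ranges lie almost on each other, and the log2 change was -0.066 (SE 0.06, edgeR adjusted p = 0.352). Its coefficient of variation over birds was 6.76% in F5 and 6.81% in Pre-recruitment follicles. Under library totals its log2 change was -0.30 and passed (edgeR adjusted p = 0.000797).

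SAT1 encodes the acetyltransferase that marks spermidine and spermine for export or oxidation, and it fell. It measured 63.6 to 108 CPM in F5 follicles (median 87.7) and 98.8 to 126 CPM in Pre-recruitment follicles (median 114). The F5 follicle of bird 5835 was the only one inside the Pre-recruitment range, and F5 was the lower in 6 of 6 birds. The mean was 85.8 ± 16.6 CPM in F5 and 113 ± 10.99 CPM in Pre-recruitment follicles (SD, n = 6 each), a fall of 0.39 on the log2 scale (SE 0.12, edgeR adjusted p = 0.00862). The size of the fall differed between birds, from 0.10 log2 units in bird 5835 to 0.79 in bird 5817.

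SMOX encodes spermine oxidase, which turns spermine back into spermidine and releases hydrogen peroxide. It had the fewest counts of the 9 genes, 330 to 866 per library in F5 and 376 to 857 in Pre-recruitment follicles. Levels were 11.04 to 23.3 CPM in F5 (median 19.0) and 13.2 to 29.3 CPM in Pre-recruitment follicles (median 21.0). The gene had no common direction: it was higher in F5 in birds 5826, 5835 and 5840 and lower in birds 5802, 5810 and 5817. The log2 change was -0.26 with an SE of 0.22 (edgeR adjusted p = 0.326), and under library totals it was -0.49 and passed narrowly (edgeR adjusted p = 0.0444). Single birds moved that change widely, to -0.060 without bird 5817 and -0.40 without bird 5840, and it did not pass in any leave-one-out fit (edgeR adjusted p from 0.123 to 0.824). Its coefficient of variation over birds, 28.9% in F5 and 29.9% in Pre-recruitment follicles, stood at percentiles 92.8 and 95.9 among the 1747 genes within 0.5 log2 units of its mean level.

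By the SD of the within-bird log2 difference, birds differed most in SMOX (0.75) and OAZ1 (0.34), followed by SAT1 and AMD1 (0.26 each). The coefficient of variation of OAZ1 stood at percentiles 59 in F5 and 70.5 in Pre-recruitment follicles among genes of like CPM. That of AMD1 stood at percentiles 92.3 and 74.7, and that of SAT1 at 91.3 and 62.6. In bird 5817 the log2 difference between its follicles was -1.33 for SMOX, -0.79 for SAT1, -0.21 for OAZ2 and 0.02 for OAZ1, and it was the lowest of the 6 birds for each of these genes. In bird 5840 SMOX differed by 0.49 and OAZ1 by 0.97, the highest of the 6 birds for both, while ODC1 differed by -0.39 and SMS by 0.11, the lowest for both. Bird 5835 was higher in F5 for 8 of 9 genes, all but SAT1. The other birds were higher in F5 for 4 to 6 of the 9. SRM and SMS were the most even of the risers, with SDs over birds of 0.137 and 0.145 log2 units. Their mean differences were 0.83 and 0.39.

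**Figure D3:**
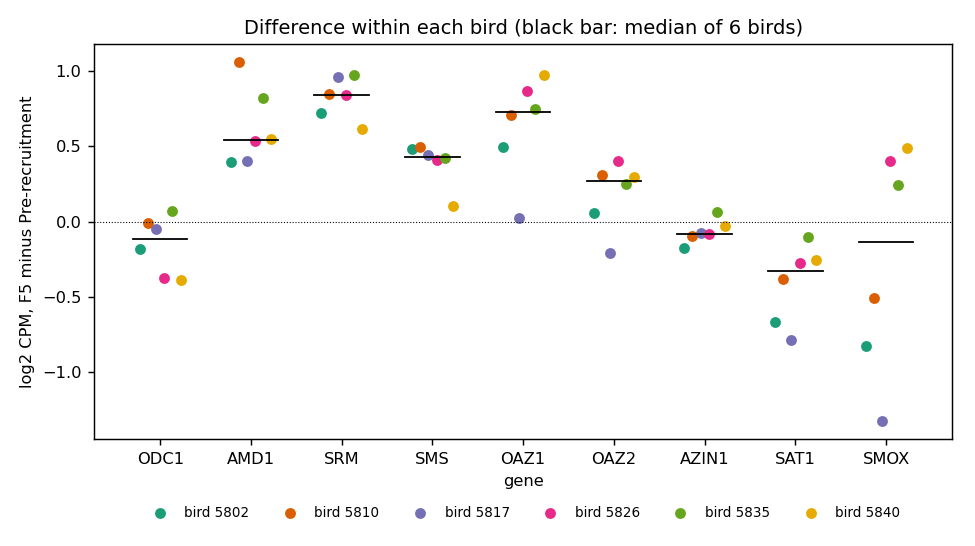
Difference in log2 CPM between the follicles of 1 bird, F5 minus Pre-recruitment (vertical axis), for each gene, with 1 point per bird and a black bar at the median of 6 birds. SRM, AMD1, SMS and OAZ1 are above 0 in every bird and SAT1 below 0 in every bird, while SMOX spreads from -1.33 to 0.49.

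Ratios between genes of 1 library do not depend on how libraries are scaled, so they show directly whether a pair of polyamine genes changed unequally. Of 8 ratios compared by exact two-sided permutation of the stage labels, 7 passed after Benjamini-Hochberg adjustment over the 8. The 8 pairs were chosen with earlier results of these data known, and they share genes, so the 8 results are not independent. The share of arbitrary gene pairs that would pass was not measured, and 65.5% of all tested genes were called. The log2 ratio of SRM to ODC1 averaged -0.28 ± 0.15 in F5 and -1.26 ± 0.15 in Pre-recruitment follicles (SD, n = 6 each), a difference of 0.98 (exact permutation p = 0.00216, the smallest that 924 arrangements allow, adjusted p = 0.00289). Spermidine synthase messenger thus gained 1.98-fold on that of the entry enzyme, and the stages did not overlap. AMD1 to ODC1 gained 0.78 log2 units, with means of 1.03 ± 0.32 in F5 and 0.25 ± 0.23 in Pre-recruitment follicles (SD, n = 6 each; exact permutation adjusted p = 0.00289). Within the synthases, SRM gained on SMS by 0.44 log2 units, from 0.24 in bird 5802 to 0.55 in bird 5835 (exact permutation adjusted p = 0.00289).

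Of the 2 antizyme genes, OAZ1 shifted against ODC1, AZIN1 and OAZ2. OAZ1 to ODC1 averaged 3.25 ± 0.22 in F5 and 2.46 ± 0.34 in Pre-recruitment follicles (SD, n = 6 each), a difference of 0.79 log2 units (exact permutation p = 0.00433, adjusted p = 0.00495). The stage ranges of this ratio overlapped, the F5 value of bird 5802 (2.95) lying below the Pre-recruitment value of bird 5817 (2.97). Within birds the difference ran from 0.072 log2 units in bird 5817 to 1.36 in bird 5840. AZIN1 to OAZ1 fell by 0.70 log2 units and OAZ2 to OAZ1 by 0.45, both lower in F5 in 6 of 6 birds (exact permutation adjusted p = 0.00289 for each). The inhibitor and the second antizyme therefore did not keep pace with OAZ1.

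Between breakdown and synthesis, the ratio of SAT1 to SRM averaged 0.0095 ± 0.23 in F5 and 1.25 ± 0.21 in Pre-recruitment follicles (SD, n = 6 each). The difference of -1.24 log2 units, 2.36-fold, was the largest of the 8 ratios, and the stage ranges did not overlap (exact permutation adjusted p = 0.00289). This ratio sets the only polyamine gene called lower against the one that rose most, so its size follows from those changes. SMOX to SAT1 differed by 0.15 log2 units with 3 birds on each side (exact permutation p = 0.444). Exact sign changes within birds gave p = 0.0312, the smallest that 64 arrangements allow, for each of the 7 ratios that passed and p = 0.469 for SMOX to SAT1.

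**Figure D4:**
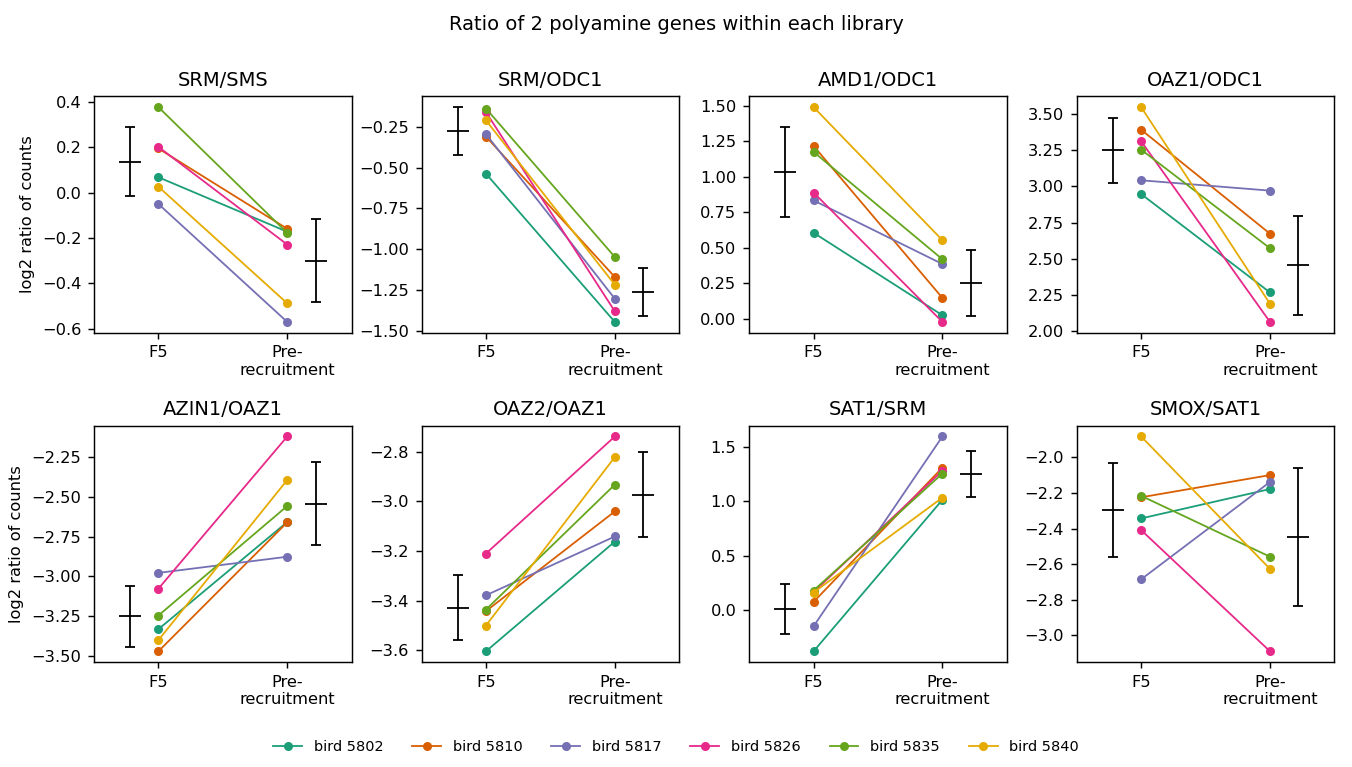
Log2 ratio of the counts of 2 polyamine genes in each library (vertical axis), in F5 and Pre-recruitment follicles, with lines joining the follicles of 1 bird and black bars for the mean and SD of 6 birds. SRM to ODC1 and SAT1 to SRM separate the stages with no overlap, and the SMOX to SAT1 lines run both ways.

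MYC rose by 0.48 on the log2 scale in the same libraries (SE 0.10, edgeR adjusted p = 0.000853). Its ratios to the 9 polyamine genes were compared after their values had been seen, with p-values adjusted over the 9. The median log2 change of all tested genes was 0.02, so a typical gene also falls relative to MYC. The share of all genes whose ratio to MYC would pass was not measured. A fall relative to MYC is therefore not particular to these genes. ODC1 fell relative to MYC by 0.64 log2 units in 6 of 6 birds (exact permutation p = 0.00649, adjusted p = 0.0117), whereas SRM gained 0.35 in 6 of 6 birds (exact permutation p = 0.00866, adjusted p = 0.0130). AMD1 differed from MYC by 0.15 log2 units (higher in 4 of 6 birds, exact permutation adjusted p = 0.280), SMS by -0.085 (higher in 2 of 6, adjusted p = 0.515) and OAZ1 by 0.16 (higher in 5 of 6, adjusted p = 0.161), and those differences did not pass. SAT1 fell by 0.89 relative to MYC, SMOX by 0.74, AZIN1 by 0.55 and OAZ2 by 0.30, each in 6 of 6 birds (exact permutation adjusted p from 0.00974 to 0.0117). The ratio of OAZ1 to MYC passed without bird 5817 (0.24, exact permutation adjusted p = 0.0408) and without its Pre-recruitment library (0.23, adjusted p = 0.0306). With any other bird or library left out it did not pass (exact permutation adjusted p up to 0.384).

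The genes with the nearest profiles were found for each gene that passed, by the root mean square difference of centred log2 CPM over 12 libraries among 9483 candidate genes. OAZ1 had the closest neighbours, the large-subunit ribosomal proteins RPL27A (0.0391 log2 units) and RPL19 (0.0391). Looked at after their values had been seen, 18 of the 20 genes nearest to OAZ1 were cytoplasmic ribosomal protein genes, which make up 0.675% of candidates. That count was 0 for ODC1, AMD1, SRM, SMS, AZIN1 and SAT1, 1 for OAZ2 and 2 for SMOX. Bird by bird, the median log2 difference of the 64 ribosomal protein genes was 0.32, 0.50, -0.14, 0.64, 0.60 and 0.79 in birds 5802, 5810, 5817, 5826, 5835 and 5840, beside 0.50, 0.71, 0.02, 0.87, 0.75 and 0.97 for OAZ1. OAZ1 thus lay above the ribosomal median in each bird, and both had their lowest value in bird 5817 and their highest in bird 5840. Sharing of reads between ribosomal protein genes and near-identical copies was not tested.

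The other genes had looser neighbours. SRM lay nearest to FRMD6 (0.1004) and the solute carrier SLC35E3 (0.102), and AMD1 nearest to the receptor GPR176 (0.107) and the isoprenoid synthase GGPS1 (0.120). SMS lay nearest to ERCC3, a helicase of transcription and DNA repair (0.0607), and TM9SF3 (0.0627). SAT1 lay nearest to the adaptor gene APBB1 (0.0897) and TLCD1 (0.112). The median distance over candidates ran from 0.309 for SMS to 0.461 for SRM. Between polyamine genes themselves, the closest pair was OAZ2 and AZIN1 (0.175) and the farthest SRM and SMOX (0.680).

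Genes around the route went both ways. Of 53 listed genes of precursor supply, salvage, transport, hypusination and further antizyme, oxidase and acetyltransferase genes, 36 were in the table and 34 were tested, and 14 rose, 9 fell and 11 did not pass (median log2 change 0.054). That is again close to the 65.5% of all genes called. Under library totals 7 were higher and 17 lower. By that scaling all tested genes also leaned downward, with 2071 higher and 5200 lower, so 28.5% of all calls were higher.

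Ornithine and arginine supply held the largest single change of the lists. It had 4 higher and 2 lower of 10 tested, against 32.9% higher and 32.6% lower of all tested genes. ARG2, the mitochondrial arginase that yields ornithine, fell to 25.8 ± 5.27 CPM in F5, against 90.1 ± 10.1 CPM in Pre-recruitment follicles (SD, n = 6 each; log2 change -1.80, SE 0.13, edgeR adjusted p = 9.08e-08). By contrast ALDH18A1, the enzyme that makes the proline and ornithine precursor from glutamate, rose 2.37-fold to 108 ± 25.3 CPM in F5, against 45.6 ± 3.09 CPM in Pre-recruitment follicles (edgeR adjusted p = 1.93e-06). The cationic amino acid transporter SLC7A3 rose 2.27-fold (adjusted p = 7.85e-08), and ASS1, which makes argininosuccinate on the way to arginine, 2.14-fold (adjusted p = 0.00137). Of the 10 tested genes of this list 5 moved the same way in 6 of 6 birds, against 62.1% of all tested genes.

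Genes of S-adenosylmethionine supply, the source of the aminopropyl donor, had 5 higher and 1 lower of 8 tested. Among all tested genes 65.5% were called, 32.9% higher and 32.6% lower. MAT2A, GNMT and BHMT, also listed, were absent from the named genes. MAT1A, a methionine adenosyltransferase best known from liver, rose to 16.6 ± 2.85 CPM in F5, against 6.34 ± 1.999 CPM in Pre-recruitment follicles (SD, n = 6 each; 2.61-fold, edgeR adjusted p = 2.08e-05). Methionine synthase MTR and its reductase MTRR rose 1.41-fold and 1.38-fold (edgeR adjusted p = 0.00149 and 0.00025). AHCYL2, a relative of the hydrolase of adenosylhomocysteine, fell by 0.61 on the log2 scale (SE 0.11, adjusted p = 0.000207). Under library totals MTR missed the threshold (edgeR adjusted p = 0.0783). By that scaling MAT1A (edgeR adjusted p = 3.11e-05) and MTRR (adjusted p = 0.0179) were the only genes of this list still called higher.

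Methionine salvage recycles the by-product of both synthases. Its genes split, with 2 higher and 2 lower of 7 tested, against 32.9% and 32.6% of all tested genes. MTAP, the phosphorylase that starts the cycle, fell by 0.53 on the log2 scale (SE 0.07, edgeR adjusted p = 1.48e-05), and KYAT3, an aminotransferase listed for its last step, by 0.89 (SE 0.10, adjusted p = 5.59e-06). The middle enzymes APIP and ENOPH1 rose 1.26-fold and 1.23-fold (edgeR adjusted p = 0.000153 and 0.000477), but neither passed under library totals (adjusted p = 0.106 and 0.316).

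Of 6 tested polyamine transport genes 2 rose and 3 fell, against 32.9% higher and 32.6% lower of all tested genes. ATP13A2, which exports polyamines from lysosomes, rose 1.61-fold to 50.1 ± 6.77 CPM in F5, against 31.2 ± 5.31 CPM in Pre-recruitment follicles (SD, n = 6 each; edgeR adjusted p = 0.000152), and its relative ATP13A3 rose 1.38-fold (adjusted p = 4.12e-05). The organic cation transporter SLC22A3 fell by 1.60 on the log2 scale (SE 0.35, edgeR adjusted p = 0.00111), at 1.66 ± 0.99 CPM in F5 and 5.04 ± 0.55 CPM in Pre-recruitment follicles (SD, n = 6 each). SLC47A1, an exporter of organic cations, fell by 0.47 (SE 0.08, edgeR adjusted p = 0.000208). Stage ranges did not overlap for 5 of the 6 tested transport genes, against 43.5% of all tested genes. Over all the lists together they did not overlap for 17 of 34 tested genes.

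Spermidine is also the source of hypusine, the modified residue of translation factor eIF5A. EIF5A2 rose 1.26-fold (edgeR adjusted p = 0.000146), and DOHH, the hydroxylase of the final step, fell by 0.43 on the log2 scale (SE 0.07, adjusted p = 0.000174). EIF5A and DHPS, also listed for hypusination, were absent from the named genes. Under library totals EIF5A2 missed the threshold (adjusted p = 0.268). AZIN2, a second antizyme inhibitor gene, measured 7.42 ± 0.79 CPM in F5 and 8.62 ± 0.85 CPM in Pre-recruitment follicles (SD, n = 6 each; log2 change -0.22, edgeR adjusted p = 0.0749). It passed under library totals (-0.45, adjusted p = 0.00139), without the F5 library of 5835 (-0.26, adjusted p = 0.0429) and without the Pre-recruitment library of 5840 (-0.27, adjusted p = 0.0411). AZIN2 did not pass in the other leave-one-out fits (edgeR adjusted p up to 0.301).

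**Figure D5:**
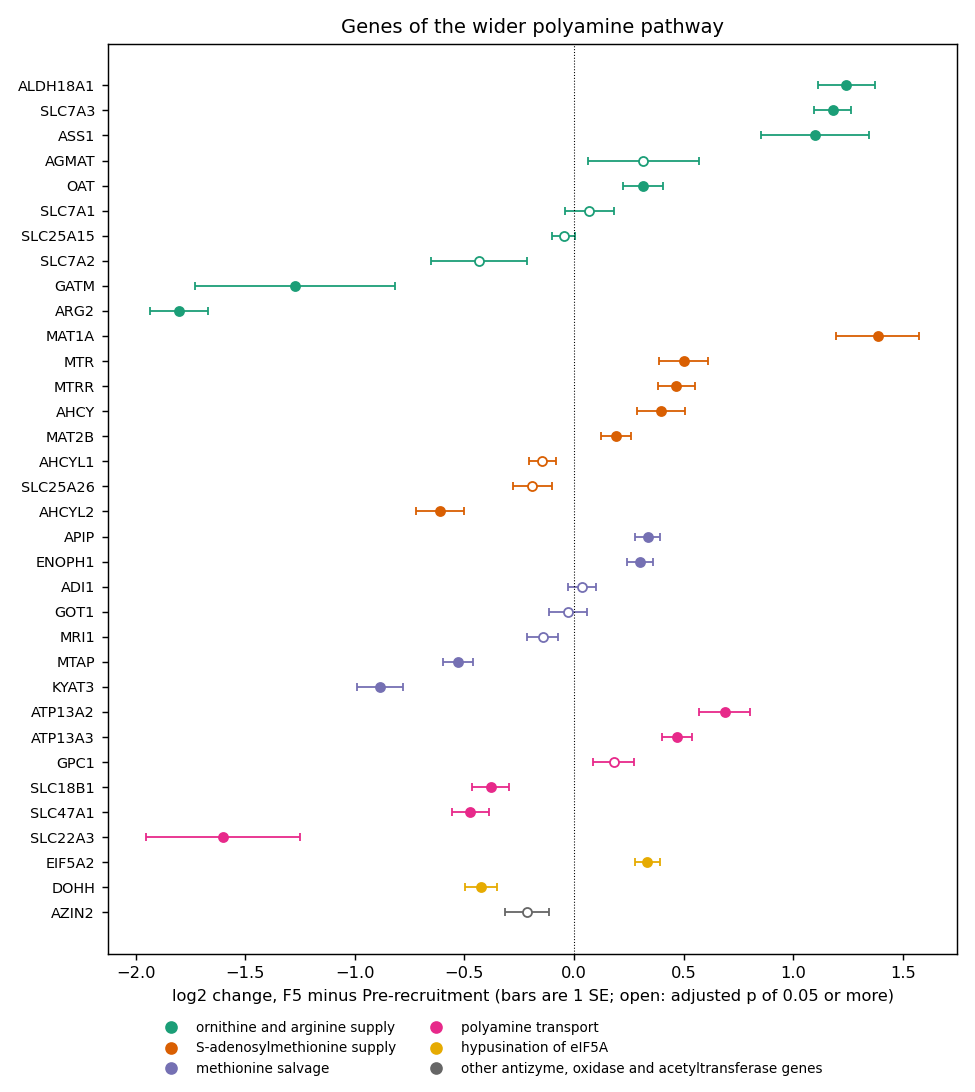
Log2 change, F5 minus Pre-recruitment (horizontal axis), of the 34 tested genes around the polyamine route, grouped and coloured by list, with bars of 1 SE. Filled points passed an adjusted p of 0.05. ARG2 lies farthest to the left at -1.80 and MAT1A farthest to the right at 1.38.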

How the data were processed

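Poly-A RNA was sequenced as paired reads on an Illumina NovaSeq after TruSeq preparation, per the labels' protocols. For each gene symbol the authors deposited kallisto estimated counts (expected counts), per the labels. Tools in the submitters' processing notes are kallisto 0.44.0, bcl2fastq 2.19, DESeq 0.99.484 and DESeq2 1.38.3, listed with the builds galGal6 and GRCg6a and without roles. The summing of transcripts to genes is not given in those notes or the labels. The values were already whole numbers. The 1 row with a blank name entered neither library sizes nor tests. It held 6.60% ± 0.215 of counts in F5 and 9.02% ± 0.515 in Pre-recruitment libraries (SD, n = 6 each). The only gene annotation at hand (GRCg7b) is of another build, so no coordinates are given.

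Counts were analysed with edgeR 4.0.16, limma 3.58.1 and R 4.3.3. filterByExpr by stage (minimum count 10) kept 11195 genes. TMM factors averaged 0.923 ± 0.0404 in F5 and 1.09 ± 0.0485 in Pre-recruitment libraries (SD, n = 6 each). Quasi-likelihood fits were robust with stage as the only term, two-sided, and log2 CPM used a prior count of 2. Ratios used counts plus 0.5. Standard errors were obtained as the absolute change over the root of the F statistic.

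Libraries of a stage come from separate birds, and no pair was a repeat (smallest chi-square per degree of freedom 22.2). Bird numbers in the labels pair the stages. After removing stage means, log2 CPM of the follicles of 1 bird correlated at 0.129 to 0.388, and at -0.298 to 0.302 for follicles of different birds. These correlations run across genes, which are not independent of each other.

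Members, lists and ratios were chosen with earlier results of these data known. The rule names the 9 members, MYC, up to 4 tested genes per list by adjusted p, and the 2 nearest profiles (mean log2 CPM of at least 2) per called member. Alternatives were library totals, DESeq2 size factors, DESeq2 1.42.0, other filters, the bird as a block, other pseudocounts and leaving out each bird or library. The code was tested on simulated counts.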

Additional observations from a re-analysis of the deposited data

Results flagged for a closer look

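In 90 groups of 6 values, 3 held a value far from the others by Dixon's gap test, fewer than the 1 in 20 that chance gives. The log2 ratio of OAZ2 to MYC in F5 follicles was 0.346 in bird 5826, against 0.113 in the next bird. MTR stood at 34.1 CPM in the Pre-recruitment follicle of bird 5840, against 27.6 CPM in the next. AZIN2 stood at 10.3 CPM in the Pre-recruitment follicle of bird 5817, against 8.54 CPM in the next. None of the 9 polyamine genes was flagged in its own level.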

How the results depend on the processing

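SRM, AMD1, OAZ1 and SAT1 kept direction and call in all 24 alternatives, with log2 changes of 0.59 to 0.87, 0.40 to 0.70, 0.40 to 0.75 and -0.63 to -0.32. Scaling by library totals changed the others: ODC1 (-0.39), AZIN1 (-0.30) and SMOX (-0.49) then passed, SMS (0.16) did not, and OAZ2 turned to -0.045. OAZ2 ran from 0.12 to 0.27 when birds or libraries were left out. With the bird as a replicate block 5 polyamine genes were called, 4 higher and 1 lower, and 7711 genes in all, against 7333; the log2 changes of SRM and SAT1 were 0.83 and -0.41, and no call of a named gene changed. Calls among the 9 genes numbered 5 to 7 over all alternatives. The 8 ratios kept direction and call in all 21 of theirs. The p-values of the main fit and of the label permutations measure spread between libraries of a stage, each from 1 of 6 birds. They do not use the pairing of follicles by bird. SMOX had an SE of 0.22 on a log2 change of -0.26, and of 0.25 on -0.25 with the bird as a block.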
